A study of Rattus norvegicus with 6 samples.

Results

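The comparison described here is between REST ChIP libraries made with different antibodies from the same cells. In 4 of the 6 libraries of the series chromatin was precipitated with a REST antibody, the other libraries being input DNA, and all 4 were used. A commercial antibody (Millipore) gave 1 library in iQNP conditions and 1 in TAP conditions, and a mixture of the 'homemade' rabbit antibodies REST14 and REST17, raised against neighbouring fragments of mouse REST encoded in exon 5, gave the matching library in each condition. The cells were HCN cells, a line of hippocampal neural stem cells from the adult rat brain grown as a monolayer over multiple passages. iQNP cells received FGF2 and BMP4 and were quiescent, whereas TAP cells received FGF2 alone and were proliferating, so FGF2 was common to every library. The tables analysed list 1775 REST bound sites in iQNP and 778 in TAP, each called with both antibodies. Of these, 756 were shared, meaning that an iQNP and a TAP peak centre lay within 50 bp of each other. Another 1019 iQNP sites had no TAP site and 22 TAP sites had no iQNP site. Sites that only 1 antibody detected are not analysed here.

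REST (RE1-silencing transcription factor, also NRSF) is a zinc finger repressor that keeps neuronal genes silent outside neurons and in neural stem cells. It recognises a long DNA element, RE1, which consists of a left and a right block of conserved bases, and recruits chromatin-modifying complexes through its N-terminal and C-terminal domains. Antibodies against different fragments of 1 protein need not precipitate it equally well in every chromatin setting, and each may also bring down other proteins.

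Promoter sequences are shown first, some from promoters with more commercial tags and some from promoters with more homemade tags. They come from RefSeq (build GRCr8) and cover 250 bases before to 50 bases after a transcription start site, and 197 of the 262 iQNP sites labelled promoter-TSS could be matched to a window by gene symbol. In 143 of these the peak itself lay between 250 bp before and 50 bp after its annotated start site, and only those 143 are counted below. Windows were searched on both strands for the RE1 blocks, written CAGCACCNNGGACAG with 2 free bases between the left and the right block, with up to 2 mismatches among the other letters. They were also searched on both strands for the palindrome TCTCGCGAGA and, as a looser form that the palindrome contains, its core CGCGAGA. The palindrome, known from promoters of housekeeping genes, was added to the search after windows of sites with many homemade tags had been read. The RE1 matches that follow are at promoters with more commercial tags, capitals marking the match, and the first 3 had no TAP site while the other 4 did.
Ttc9b: cggcgcgCTGTCCCCGGTGCTGatgctcag
Celsr3: ctccattCAGCACCGTGGGCAGcacttctg
Lhfpl5: cctggcgCTGGCCGCGGTGCTGaaacgcgt
Hrh3: cgcggcgCTGTCCGTGGTGCTGcccgcgcc
Vgf: gcgggcgCTGTCCAGCGTGCTGaagccgga
Fam163b: ccagcgtCAGCACCAGGGACAGttcctcgc
Fbll1: gaggtagCTGTCCCTGGTGCTGactggacg

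The next stretches are from promoters without a TAP site that had more homemade tags, and the capitals mark the palindrome.
Mdh2: gtcgagactcTCTCGCGAGAtctcggaagt
Mapk14: gtgtctctctTCTCGCGAGAtcttcccgtc
Psmd5: tgagcaaggaTCTCGCGAGActttggcaga
Rbm39: ccgggcagttTCTCGCGAGAgcccgtgctg
Npm1: ctagaatggaTCTCGCGAGAtctcctgcgg
Rps6: ctcgggctatTCTCGCGAGAacttagagtg
Mms22l: accgacaagcTCTCGCGAGAgctcgggcag

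The whole Mdh2 window (chr12:26543792-26544091, minus strand, GRCr8) held the core more than once, shown in capitals.
Mdh2: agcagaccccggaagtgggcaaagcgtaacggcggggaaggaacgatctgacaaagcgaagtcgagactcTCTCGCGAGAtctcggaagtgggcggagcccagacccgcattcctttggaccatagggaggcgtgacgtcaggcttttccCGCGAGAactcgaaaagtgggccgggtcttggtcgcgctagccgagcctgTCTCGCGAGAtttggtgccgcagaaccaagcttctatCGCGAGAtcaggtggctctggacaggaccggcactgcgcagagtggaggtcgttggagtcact
The Ttc9b window (chr1:92080776-92081075, plus strand, GRCr8) held 1 exact RE1 match, on the strand opposite to the gene.
Ttc9b: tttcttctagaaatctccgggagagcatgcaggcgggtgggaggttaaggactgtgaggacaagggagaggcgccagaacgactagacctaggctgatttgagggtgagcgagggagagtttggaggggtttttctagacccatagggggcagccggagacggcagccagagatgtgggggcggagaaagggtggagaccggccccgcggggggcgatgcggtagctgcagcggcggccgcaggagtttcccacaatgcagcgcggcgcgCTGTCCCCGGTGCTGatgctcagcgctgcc

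Across the shared sites the commercial antibody collected more tags than the homemade antibodies in both growth conditions. A tag is 1 mapped read, and the antibody ratio used throughout is the log2 of commercial over homemade tags, each divided by the tag depth of its library. The 4 libraries held 25.2 to 29.8 times 1000000 tags, and a site had 12 to 1785 tags. At the 756 shared sites the median ratio was 0.51 in iQNP, a 1.42-fold difference, and 0.26 in TAP, a 1.20-fold difference. The mean of both medians was 0.38 ± 0.18 (SD, n = 2 growth conditions). Commercial tags were the more numerous at 739 shared sites in iQNP and at 564 in TAP. In both conditions together this held at 553 sites (73.1%), whereas homemade tags were the more numerous in both at 6 sites (0.794%). At 186 sites the commercial antibody was ahead in iQNP and behind in TAP, and at 11 sites the order was the opposite.

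A paired edgeR quasi-likelihood test over the 756 shared sites, with growth condition as the pair and library depths as the scale, placed 134 sites (17.7%) past an adjusted p of 0.05 with more commercial tags. It placed 0 sites (0%) past it with more homemade tags, and 0 sites had an unadjusted p under 0.05 in that direction, against 311 with more commercial tags. With DESeq2 the counts were 31 and 0, and with the pairing left out they were 0 and 0. With 2 libraries for each antibody an exact permutation test of a single value, pairing ignored, could not go below a two-sided p of 0.333, so none was run. The p-values of single sites below are from edgeR, with the spread shared over sites. Each antibody was used once per condition, and the study names no separate cultures. The spread behind these p-values is therefore the change of the antibody ratio between the growth conditions, pooled over sites. It is not a spread between replicate libraries of 1 antibody and condition. Input tags, peak calling and the immunoprecipitation itself were not varied within an antibody, so a property of the antibody and a property of its libraries cannot be told apart.

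The shared sites with the largest commercial excess lay in introns or between genes. At an intron of Grb10 (chr14:92910581-92910639, rn4), which encodes a growth factor receptor adaptor, the commercial antibody gave 82 tags in iQNP and 27 in TAP, and the homemade antibodies gave 42 and 15. Both commercial libraries exceeded the homemade library of the same condition. The fitted log2 difference was 0.97 ± 0.29 (SE; edgeR, adjusted p = 0.0147). At an intron of RT1-EC2, a class I histocompatibility gene (chr20:2817054-2817141, rn4), there were 56 commercial against 31 homemade tags in iQNP and 30 against 16 in TAP, a log2 difference of 0.91 ± 0.29 (adjusted p = 0.0203 with edgeR). The intergenic site assigned to Rbm25, a splicing factor gene, had 107 against 60 tags in iQNP and 39 against 22 in TAP (log2 difference 0.87). The intron site of Acaa1b, a peroxisomal thiolase gene, had 122 against 68 and 49 against 28 (log2 difference 0.87), and the site assigned to LOC292199 had 62 against 32 and 50 against 27 (log2 difference 0.95). At these 5 sites the ratio was above the median of its condition in iQNP and in TAP.

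No shared site passed the test with more homemade tags, and the largest values in that direction were small. At the promoter of Tnni3k, a cardiac kinase gene (chr2:252824423-252824499, rn4), there were 72 commercial and 93 homemade tags in iQNP and 14 and 18 in TAP. Homemade tags were thus higher in both conditions, with a fitted log2 difference of -0.31 ± 0.27 (SE; edgeR, adjusted p = 0.338). At an intron of Sned1, an extracellular matrix gene, iQNP gave 37 and 45 tags and TAP gave 24 and 26. At an intron of Tubb3, the neuronal beta-tubulin gene, they were 42 and 50 in iQNP and 23 and 24 in TAP. The sites of Pcbp3, an RNA-binding protein gene, with 69 and 69 tags in iQNP and 23 and 35 in TAP, and of Olfm1, which encodes a secreted synaptic glycoprotein, with 85 and 89 in iQNP and 33 and 42 in TAP, had a ratio at or slightly above 0 in iQNP after depth scaling and below 0 in TAP.

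**Figure D1:**
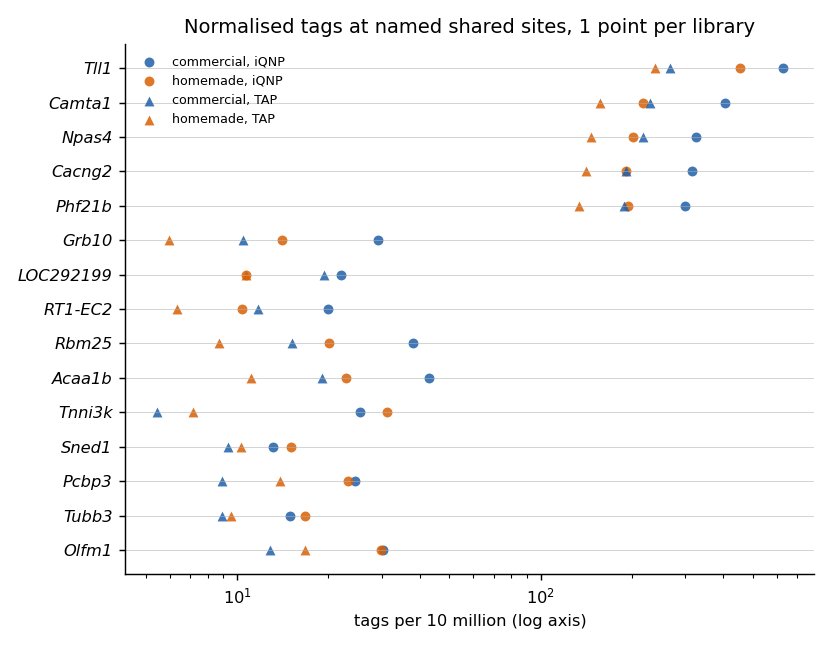
Normalised tags per 10000000 (log axis) at 15 named shared sites, 1 point per library, circles for iQNP and triangles for TAP, blue for the commercial and orange for the homemade antibodies. At the top 10 sites both blue points lie to the right of the orange point of the same condition, while at the bottom 5 sites the points lie close together or in the opposite order.

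Once the overall excess of commercial tags was removed by TMM scaling over the shared sites, 1 site (0.132%) differed from the typical shared site and 0 (0%) did so towards the homemade antibodies (edgeR; 31 and 25 sites had an unadjusted p under 0.05 in the 2 directions). DESeq2 with its own size factors also called 1 and 0. That site lay in an intron of Camta1, a calmodulin-binding transcription activator gene (chr5:168809198-168809260, rn4). It had 1147 commercial and 650 homemade tags in iQNP and 591 and 396 in TAP, which gave ratios of 0.90 and 0.55. Its log2 difference from the typical shared site was 0.36 (edgeR, adjusted p = 0.00222), and without the pairing it was not called. Among the shared sites with the most tags, that of Tll1, a secreted metalloprotease gene, had 1785 commercial and 1355 homemade tags in iQNP and 688 and 599 in TAP. Input tags at this site were high as well, at 101 and 102.8 in iQNP and 89.6 and 85.1 in TAP. The medians over all sites were 2.8, 3, 2.7 and 1.8. The sites of Npas4, an activity-regulated transcription factor gene (922, 601, 558 and 369 tags in the same order), Cacng2, which encodes a calcium channel and AMPA receptor subunit (895, 569, 491 and 355), and Phf21b, a PHD finger protein gene (848, 579, 484 and 338), had commercial tags ahead in both conditions and did not pass the relative test. None of these sites with the most tags passed the depth-scaled test. There the edgeR adjusted p was 0.0647 at Camta1, 0.079 at Npas4, 0.087 at Cacng2, 0.0968 at Phf21b and 0.487 at Tll1.

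The antibody ratio of a shared site in iQNP was only weakly related to its ratio in TAP. Across the 756 sites Pearson's r was 0.045 and Spearman's rho 0.066, given as a description since the sites of a condition share their libraries. Relative to the medians, 198 sites were above in both conditions, 198 were below in both and 360 lay on opposite sides. Pearson's r was 0.13 at the 599 sites with at least 20 tags in every library and 0.25 at the 142 sites with at least 50. The SD of the ratio over the shared sites was 0.26 in iQNP and 0.35 in TAP, beside 0.24 and 0.37 that counting error alone gives at these tag numbers. The spread between shared sites was thus close to what counting error alone gives at this depth. The 95% exact (Clopper-Pearson) interval of the ratio lay above the median of all sites of its condition at 5.07% of iQNP and 2.06% of TAP sites, and below it at 7.49% and 2.44%. It lay above in both conditions at 7 sites (0.926%) and below it in both at 0 (0%).

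**Figure D2:**
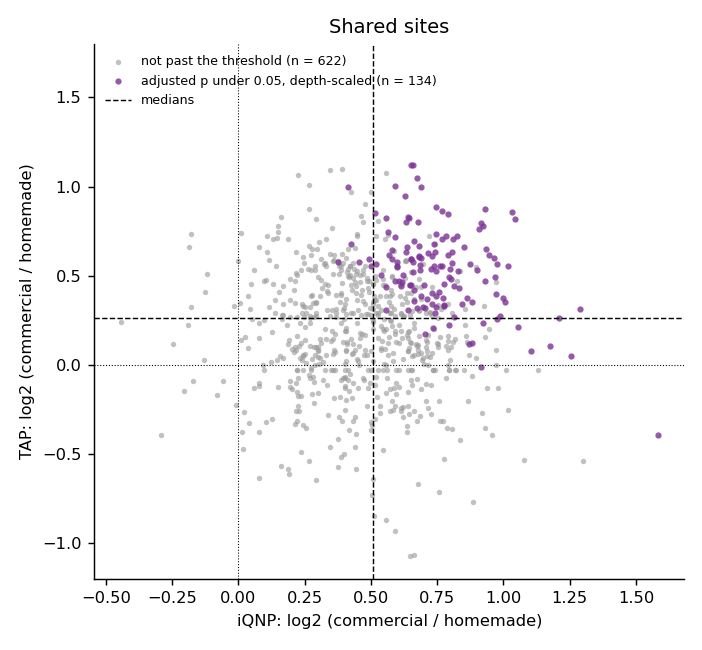
Log2 ratio of commercial to homemade tags per depth in iQNP (x axis) and TAP (y axis) at the 756 shared sites, 1 point per site. Purple points are the 134 sites past an adjusted p of 0.05 in the depth-scaled test, dotted lines mark equal tags and dashed lines the medians of 0.51 and 0.26. The cloud is round, and most of it lies above 0 on both axes.

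By annotation class, the iQNP promoters were the largest group without an excess of commercial tags. The labels promoter-TSS, intron, exon, TTS (transcription termination site) and intergenic come from the annotation of these sites supplied with the study. At the 262 promoter-TSS sites of iQNP the median ratio was -0.034, beside 0.44 at the 1513 other iQNP sites. Homemade tags were the more numerous at 136 of the 262 (51.9%, 95% Wilson interval 45.9% to 57.9%), against 16.5% of all iQNP sites. The interval treats sites as independent and covers counting of sites only. Intergenic sites had a median of 0.43 (972 sites), introns 0.46 (462), exons 0.49 (39) and TTS sites 0.50 (22). In TAP the 64 promoter-TSS sites had a median of 0.29 and the 714 other sites 0.24, and homemade tags were ahead at 13 promoters (20.3%), against 26% of all TAP sites. A promoter median below 0 was thus seen in iQNP only. All 64 TAP promoters had an iQNP site, so the TAP values do not cover the iQNP promoters without a TAP site. Among smaller classes, TTS sites in TAP had a median of -0.0030, with homemade tags ahead at 6 of 11 (54.5%), and the 2 non-coding sites in iQNP had a median of -0.064. No class had a median below 0 in both conditions.

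The promoter difference lay in the iQNP promoters that had no TAP site. At the 63 promoters with a TAP site the iQNP median was 0.61, and 1 of them (1.59%) had more homemade tags. At the 199 promoters without one the median was -0.16, with quartiles of -0.39 and 0.12, and 135 (67.8%, Wilson interval 61.1% to 73.9%) had more homemade tags. Over all 1019 iQNP sites without a TAP site the share was 27.1%, and over the 820 of them outside promoters it was 17.2%, with a median of 0.38. The 199 promoters thus made up 135 of the 293 iQNP sites with more homemade tags. They also made up 21 of the 31 sites (1.75% of all iQNP sites) whose 95% interval lay wholly below 0, and 83 of the 133 (7.49%) whose interval lay below the typical iQNP ratio. The TAP tags at these promoters are not analysed here, because the TAP table lists called sites only. No test of the class difference is given, since each antibody had 1 library in iQNP.

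**Figure D3:**
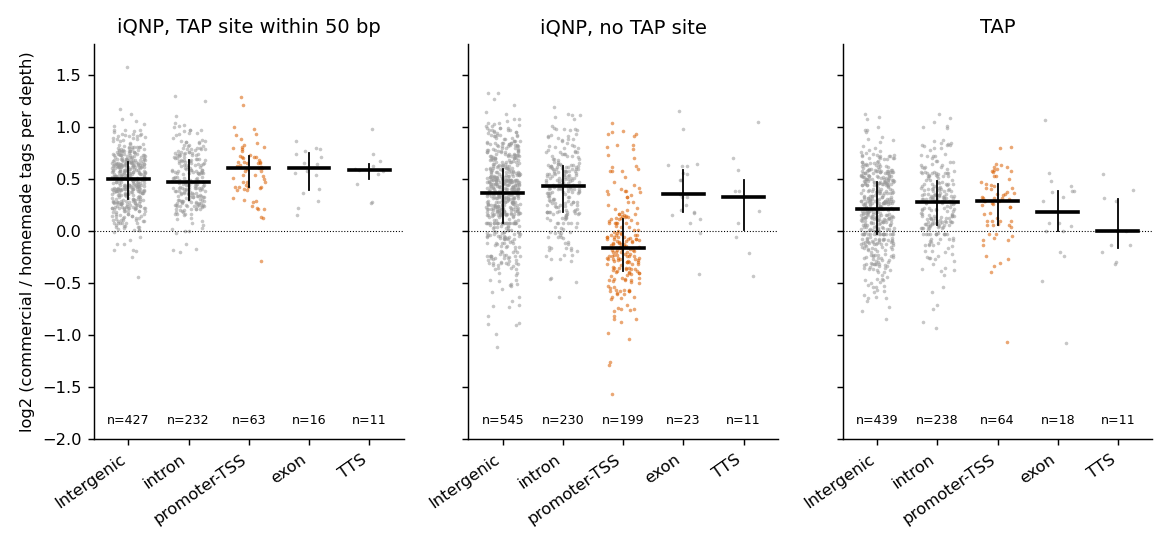
Log2 ratio of commercial to homemade tags per depth (y axis) by annotation class, for iQNP sites with a TAP site within 50 bp, iQNP sites without one, and TAP sites. Points are sites, thick bars medians and thin lines the middle quartiles. Promoter-TSS sites, in orange, fall below the other classes in the middle panel only, with a median of -0.16.

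More homemade tags were found at these promoters at every tag level. Among iQNP sites without a TAP site, those with a mean of up to 8 normalised tags had more homemade tags at 18 of 34 promoters and at 56 of 199 other sites. With more than 20 and up to 40 normalised tags the counts were 31 of 38 promoters and 13 of 125 other sites. Above 40 they were 8 of 8 promoters and 1 of 15 others, so the share was higher at the highest than at the lowest tag level at promoters and lower elsewhere. By distance, 73 of the 105 such promoter peaks within 100 bp of the start site had more homemade tags, as had 43 of the 60 at over 100 and up to 250 bp. At over 250 and up to 500 bp the count was 9 of 20, with a median of 0.059, and at over 500 and up to 1000 bp it was 10 of 14. The 32 iQNP sites without a TAP site that lay within 1 kb of a start site under another label had a median of 0.19 with 21.9% having more homemade tags. These values lay between those of the 199 promoters and those of the 788 such sites over 1 kb away, which had a median of 0.39 and 17%. As fold over input, the deposited measure that divides by the input library, the 199 promoters had medians of 9.53 (commercial) and 10.8 (homemade), and the homemade fold was the higher one at 65.8% of them. Input tags at the 199 promoters had medians of 3.8 and 4 in the commercial and homemade windows, against 2.8 and 2 at the 820 other sites. The part of input in the result was not tested beyond the fold over input.

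**Figure D4:**
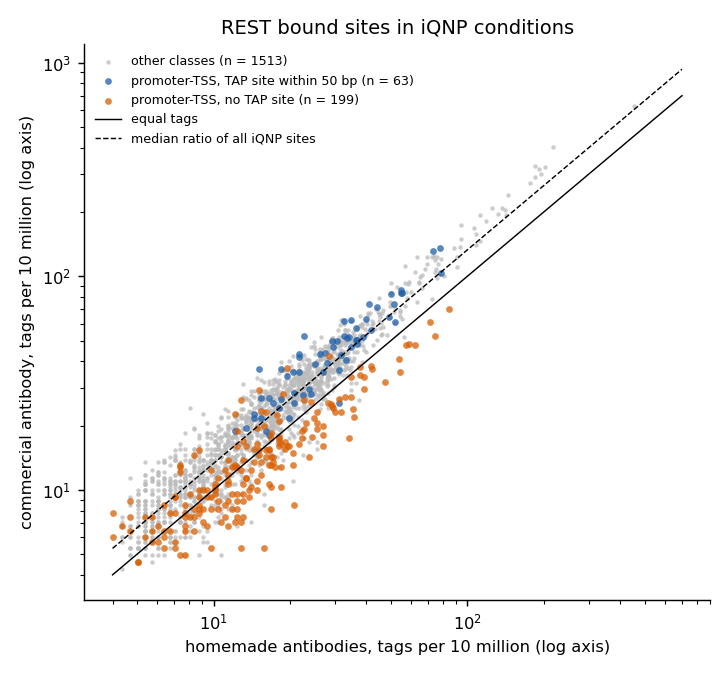
Normalised tags per 10000000 with the homemade (x axis) and commercial (y axis) antibodies at 1775 iQNP sites, both axes logarithmic. The solid line marks equal tags and the dashed line the median ratio. Orange points, the 199 promoter-TSS sites without a TAP site, lie mostly below the solid line up to the highest tag numbers they reach, whereas blue points, the 63 promoters with a TAP site, lie around the dashed line.

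Among these promoters were genes used by every cell, and also synaptic genes such as Syp, Rab3c and Pclo, where commercial tags were ahead. A link between the kind of gene and the ratio was not tested. The 8 promoters with the most tags all had more homemade tags. Mdh2, the mitochondrial malate dehydrogenase gene (chr12:22034278-22034336, rn4), had 149 commercial and 222 homemade tags, a ratio of -0.50 (95% exact interval -0.81 to -0.19). Mapk14, which encodes the p38 kinase, had 101 and 162 tags (-0.60, interval -0.98 to -0.24). Psmd5, a proteasome assembly chaperone gene, had 118 and 160 tags, Atp5f1, an ATP synthase subunit gene, 136 and 185, and Rbm39, a splicing factor gene, 173 and 213. The others were LOC687565 with 198 and 253 tags, Cdk12, a transcription-coupled kinase gene, with 134 and 170, and Scamp5, a secretory carrier membrane protein gene, with 138 and 175. By contrast, the promoters with a TAP site and the most tags belonged to neuronal genes and had more commercial tags. Glra1, a glycine receptor gene (chr10:41021754-41021809, rn4), had 384 commercial and 232 homemade tags in iQNP and 176 and 111 in TAP, and passed the depth-scaled test (log2 difference 0.73 ± 0.18, SE; edgeR, adjusted p = 0.00683). Hrh3, the histamine H3 receptor gene, had 244 and 163 tags in iQNP and 98 and 75 in TAP, and passed as well (0.54 ± 0.17, edgeR adjusted p = 0.0196). In iQNP, Scrt1, a neural zinc finger repressor gene, had 372 and 219 tags, Vgf, a neuropeptide precursor gene, 295 and 235, and Svop, a synaptic vesicle gene, 235 and 164.

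Among iQNP sites without a TAP site the lowest ratios were at the promoters of Mrp63, a mitochondrial ribosomal protein gene (chr15:36866817-36866884, rn4), with 15 commercial and 47 homemade tags (-1.57, interval -2.51 to -0.70), Gas8, a ciliary dynein regulator gene, with 24 and 62 tags (-1.29), and Ncoa4, a ferritin receptor gene, with 15 and 38 (-1.26). The highest were at intergenic sites assigned to Fam194a (38 and 16 tags, ratio 1.33), Papd7, a poly(A) polymerase gene (64 and 27, 1.32), and Taok3, a kinase gene (55 and 25, 1.22). Promoters were 199 of the 1019 iQNP sites without a TAP site. Of the 10 lowest ratios 5 were at promoters, and of the 10 highest 0 were. These sites were chosen for their ratios, so the values are a description.

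Sites of ribosome and cell cycle genes that the study followed up in quiescent cells were also examined. Each of the 6 examined sites lay in iQNP only and had more homemade tags. Of these, 5 were promoter-TSS sites, a class in which 67.8% of the iQNP sites without a TAP site had more homemade tags, and the Tipin site was intergenic, where 18.9% of such sites did. The 5 promoters are thus read as members of that class and not as a result about these genes. Npm1, which encodes nucleophosmin of the nucleolus (chr10:18062729-18062795, rn4), had 29 commercial and 50 homemade tags (ratio -0.71, interval -1.42 to -0.02). Rps6, a small-subunit ribosomal protein gene, had 23 and 37, and Rpl4, of the large subunit, 13 and 15. Cdc20, an activator of the anaphase-promoting complex, had 19 and 34 tags, Mms22l, a replication fork repair gene, 40 and 50, and the site nearest to Tipin, a fork protection gene, 26 and 34. The interval lay below 0 at 1 of the 6 (Npm1) and below the typical iQNP ratio at 4, and both antibodies called every site. The genes were chosen with these data known and are no independent sample of promoters.

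The letters of the promoter windows split along the same line. The RE1 blocks were found in 7 of the 23 promoters with a TAP site (30.4%) and in 5 of the 120 without one (4.17%), against 1.96% of all 33469 RefSeq promoter windows. The exact left block CAGCACC was in 17 of the 23 (73.9%) and in 12 of the 120 (10%), with 6.78% over all windows, and the right block GGACAG in 17 of the 23 and in 25 of the 120 (20.8%), with 21.7% over all windows. The palindrome TCTCGCGAGA was in 0 of the 23, and in 49 of the 120 (40.8%), against 0.373% of all windows. Its core CGCGAGA was in 0 of the 23 and in 94 of the 120 (78.3%), against 2.39% of all windows. Both were searched for after windows of sites with many homemade tags had been read, so these shares are a description. The letters of a window in GRCr8 do not show where in the rn4 peak they lie or what protein was bound.

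The median antibody ratio was lowest at promoters with the whole palindrome, though with 1 library per antibody no test is given. The palindrome was taken from windows of sites with many homemade tags. The values below are therefore a description and no support for a link between palindrome and ratio. The lowest single ratios were at Gas8 (-1.29), Ncoa4 (-1.26) and Nop14 (-1.04), whose windows held no palindrome. At the 49 promoters with the palindrome and no TAP site the median was -0.28, with 91.8% having more homemade tags, a median of 17 normalised commercial and 22.2 homemade tags. At the 71 without the palindrome it was -0.08, with 64.8%, and these had fewer tags, with medians of 9.58 and 12.4. The part of the tag level in this difference was not tested. The core without the palindrome did not go with a lower ratio. At the 45 promoters with the core only the median was -0.080 with 68.9% having more homemade tags, beside -0.10 and 65.2% at the 23 with neither the core nor the RE1 blocks. Of the 22 promoters with a ratio of -0.5 or less, 12 held the palindrome, and of the 13 with a ratio above 0.3, 0 held it. The 5 promoters without a TAP site but with RE1 blocks fell on both sides of 0. Celsr3, which encodes an axon guidance cadherin (83 commercial and 45 homemade tags, ratio 0.96), Lhfpl5, a hair cell channel subunit gene (74 and 38, 1.04), and Ttc9b (120 and 85, 0.58) had more commercial tags and held no core. Scamp5 (138 and 175, -0.26) and Fadd, a death receptor adaptor gene (43 and 49, -0.11), held the palindrome beside their RE1 match and had more homemade tags. At the 16 promoters with a TAP site but no RE1 match the median was 0.46, beside -0.20 at the 115 promoters with neither. Among the 16 was Tnni3k, the promoter with the lowest ratio of all promoters with a TAP site, whose window held neither the RE1 blocks nor the core.

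**Figure D5:**
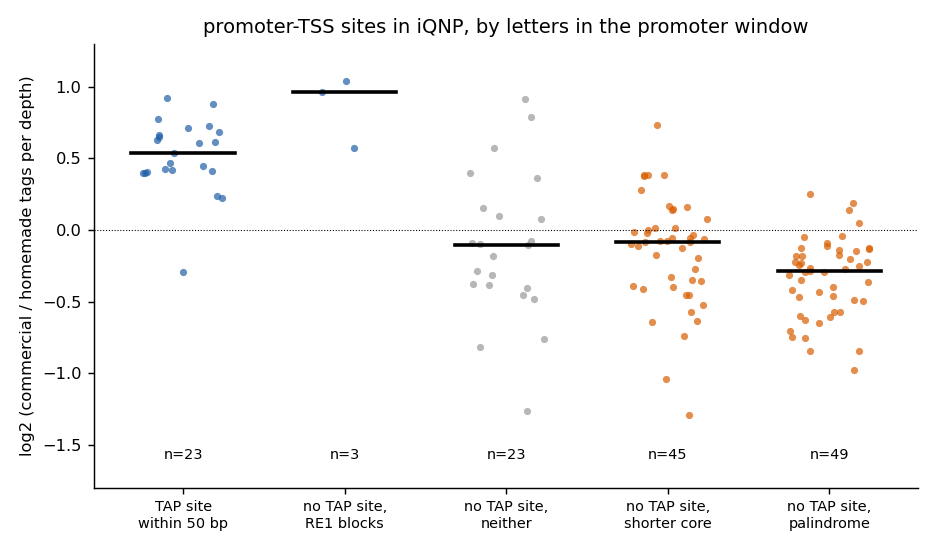
Log2 ratio of commercial to homemade tags per depth in iQNP (y axis) at 143 promoter-TSS sites, grouped by whether a TAP site lay within 50 bp and by the letters in the RefSeq promoter window. Points are sites and bars medians. The 49 promoters with the palindrome have a median of -0.28 and the 23 with a TAP site a median of 0.54, while the 3 with RE1 blocks and no core lie between 0.58 and 1.04.

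In iQNP the shared sites of the neuronal gene groups had medians near that of all shared sites. In TAP the medians of the receptor, adhesion and cytoskeleton groups (0.10, 0.13 and 0.06) lay below the 0.26 of all shared sites. Those of the ion channel and vesicle groups (0.40 and 0.34) lay above it. The lowest medians of the 6 groups were those of translation and RNA processing genes. Sites were assigned to a group by the symbol of the nearest gene. Voltage-gated and related ion channel genes had 44 shared sites, of which 9 passed the depth-scaled test with more commercial tags (20.5%, against 17.7% of all shared sites) and 0 with more homemade tags. Their medians were 0.54 in iQNP and 0.40 in TAP, beside 0.51 and 0.26 over all shared sites. Kcnk9, a leak potassium channel gene, had 820 commercial and 551 homemade tags in iQNP and 433 and 295 in TAP, and Cacna1a, a calcium channel gene, 159 and 118 in iQNP and 92 and 71 in TAP. Neither passed the test on its own.

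Of 27 shared sites at neurotransmitter receptor genes 5 passed with more commercial tags (18.5%) and 0 with more homemade tags (medians 0.55 and 0.10). The share over all shared sites was 17.7%. Besides Glra1 and Hrh3 these included Chrnb2, a nicotinic receptor subunit gene, with 201 and 155 tags in iQNP and 108 and 71 in TAP (edgeR, adjusted p = 0.0305). Synaptic vesicle and secretory genes had 30 shared sites, 8 of which passed with more commercial tags (26.7%, medians 0.55 and 0.34). The site nearest to Vamp3, a vesicle SNARE gene, lay in an intron of the transcript that also holds the Camta1 site. It passed narrowly with 586 and 373 tags in iQNP and 257 and 199 in TAP (edgeR, adjusted p = 0.0497). The granin gene Chgb had 339 and 235 tags in iQNP and 161 and 135 in TAP. Of 16 sites at neural adhesion and axon guidance genes 2 passed (12.5%, medians 0.48 and 0.13). These were the exon site of Celsr3 (349 and 220 tags in iQNP, 242 and 181 in TAP) and the site of the neurexin gene Nrxn3 (264 and 192, 113 and 78). Neuronal cytoskeleton and transport genes had 15 shared sites with 2 calls (13.3%, medians 0.54 and 0.06). Crmp1, a microtubule-associated growth cone gene, had 157 and 98 tags in iQNP and 76 and 56 in TAP and passed. Map2, the dendritic microtubule protein gene, had 146 and 96 in iQNP but 62 and 74 in TAP. The order of the tag counts thus differed between the conditions, but the exact interval of the TAP ratio covered both signs (-0.80 to 0.22).

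Translation and RNA processing genes had 7 shared sites, of which 0 passed in either direction, with medians of 0.24 in iQNP and -0.17 in TAP. At the site of Rps19bp1, a ribosomal protein binding partner, there were 112 commercial and 115 homemade tags in iQNP and 74 and 91 in TAP. Mrpl3, a mitochondrial ribosomal protein gene, had 105 and 91 in iQNP and 29 and 33 in TAP. Over all 44 iQNP sites of the group the median was 0.16, and 14 (31.8%) had more homemade tags, against 16.5% of all iQNP sites. Of those 44 sites 20 were promoters, none with a TAP site, with a median of -0.10 and homemade tags ahead at 12 (60%), beside -0.16 and 67.8% at all promoters without a TAP site, while 2 of the 24 other sites had more homemade tags. Nop14, a gene of ribosome assembly, had the lowest ratio of these 20, with 23 commercial and 50 homemade tags (-1.04, interval -1.82 to -0.30). The interval of that site and of Npm1 lay below 0, and the other 18 intervals included 0.

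The ratio also moved with the number of tags at a site. From the lowest to the highest quintile of sites by mean normalised tags the median ratio went from 0.25 to 0.52 in iQNP and from 0.13 to 0.34 in TAP. Tags enter both the ratio and the ordering, so the trend is a description. Outside promoters the same step in iQNP was from 0.32 to 0.52. Sites within repeats had a median of 0.47 in iQNP (129 sites) and 0.17 in TAP (38 sites). Among them 24 iQNP sites lay in the long terminal repeat RMER21A, an endogenous retroviral element, with a median of 0.65, while the 9 RMER21A sites of TAP had a median of 0.15.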

How the data were processed

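Chromatin immunoprecipitation followed by sequencing was compared between a commercial REST antibody and a mixture of homemade REST antibodies, with 1 library each in iQNP and TAP conditions. The authors aligned reads to rn4 with Bowtie2 and called peaks with HOMER (versions not given in the sources used here). They kept peaks called with both antibodies, merged within 50 bp, and deposited 1 table per condition. The deposited values used were counts (total tags per peak), signal (tags normalised to a library of 10000000, and input tags), ratio (fold over input, over local background and for clonality), fraction (focus ratio) and p-value against input. Antibody 1 was read as commercial and antibody 2 as homemade from the sample titles and table headers. The annotation classes and nearest genes came from the study's supplementary annotation of the same sites, 1 repeated line in each condition left out.

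Depth was the median of total over normalised tags in a library (25.2 to 29.8 times 1000000 tags), because in the commercial iQNP library total tags exceeded the normalised value by 1 tag or more at 326 of 1775 sites and in the other libraries at 0. Peak windows were 172 and 166 bp wide (iQNP, commercial and homemade) and 174 and 168 bp (TAP). Counts at 756 shared sites were tested with edgeR 4.0.16 (R 4.3.3; quasi-likelihood test, growth condition as a block, Benjamini-Hochberg adjustment), scaled either by depth or by TMM over these sites. The design left 1 residual degree of freedom per site, with the spread shared over sites. DESeq2 1.42.0 was an alternative, as were other filters and pairing distances. Growth conditions pair the libraries by the labels; deviations of the ratio correlated at 0.045. Single-site intervals are exact (Clopper-Pearson, scipy 1.17.1) and cover counting error only. The fits were tested on simulated data: of 200 altered sites among 756, each moved by 1 log2 unit, 96% (depth-scaled) and 95.5% (TMM) were recovered. That step was larger than the fitted difference at Grb10 (0.97) and than the depth-scaled median over shared sites (0.42). The simulation held no overall excess of 1 antibody, and recovery of smaller differences was not tested.

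The comparison, gene groups and named genes were chosen with earlier results of these data known. Named shared sites were, by direction, up to 5 (depth-scaled) or 8 (relative) called sites with the largest difference and the same direction in both conditions, or the 5 largest values where none was called; the 5 sites with most tags; and 3 per gene group with most tags. Also named were the sites within 10 kb of 6 chosen genes and 3 iQNP sites without a TAP site per direction. Promoters with most tags, Nop14 and the promoters with sequence matches were named after their values were seen. Promoter sequences came from RefSeq, GRCr8, and no site sequence was read, since no genome of the rn4 build was used here.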

Additional observations from a re-analysis of the deposited data

Results flagged for a closer look

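Several values had opposite signs in iQNP and TAP, with 1 library per antibody in each condition, so none of these differences was tested. By class, the median ratio of promoter-TSS sites was -0.034 in iQNP and 0.29 in TAP, and that of TTS sites 0.50 and -0.0030. The TAP promoters are almost the same sites as the iQNP promoters with a TAP site, where the iQNP median was 0.61. For genes of translation and RNA processing the medians were 0.16 in iQNP and -0.13 in TAP, over 44 and 8 sites.

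Single named sites had ratios of opposite sign too, but the exact interval of the TAP ratio covered both signs at every site named here. In iQNP the interval was wholly positive only at Map2 (0.30 to 1.07) and Dhx35 (0.17 to 1.08). At the Pcbp3, Olfm1 and Rps19bp1 sites commercial tags were not ahead in iQNP before depth scaling. Counting error alone could thus give these changes of sign in TAP. The ratio was 0.079 in iQNP and -0.64 in TAP at the Pcbp3 site, 0.012 and -0.38 at the Olfm1 site, and 0.041 and -0.33 at the Rps19bp1 site. It was 0.68 and -0.29 at Map2, 0.62 and -0.24 at the RNA helicase gene Dhx35, and 0.29 and -0.22 at Mrpl3. At the site of Chat, the choline acetyltransferase gene, the ratio was -0.25 in iQNP and 0.11 in TAP, from 83 commercial and 104 homemade tags in iQNP and 42 and 38 in TAP. Over all shared sites 186 had commercial tags ahead in iQNP only, and 11, Chat among them, had commercial tags ahead in TAP only.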

How the results depend on the processing

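The commercial excess over all shared sites (0.38) stayed above 0 and within 1 SD under every alternative run. It was 0.23 as fold over local background, the lowest value, 0.26 without replicate 1 (TAP alone) and 0.51 without replicate 2 (iQNP alone), the highest. Leaving out a single library would leave 0 residual degrees of freedom, so a growth condition was left out instead and gave no test. The 134 calls with more commercial tags became 1 with TMM, 1 with RLE size factors, 31 with DESeq2 (615 adjusted p-values not given) and 85 with centres within 25 bp. The scaling alternatives remove the overall excess by construction. In the fits without the replicate block, which ignore the pairing by growth condition, both counts with more commercial tags, 134 and 1, became 0. No alternative gave a call with more homemade tags. Pearson's r between the conditions was 0.13 with at least 20 tags and 0.25 with at least 50. The share of iQNP promoters with more homemade tags (51.9%) was 41.9% for any site within 1 kb of a start site, 1.59% at shared sites, 67.8% at sites without a TAP site (added after seeing the data), and 61.9% and 36.2% in the lowest and highest tertile by tags. In TAP (20.3%) it was 11.1%, 47.1% and 10.5% in the lowest, middle and highest tertile, over 9, 17 and 38 promoters. The other comparison-level values kept their side in all alternatives run. Among the named sites, Grb10, LOC292199, RT1-EC2, Rbm25, Acaa1b and Camta1 lost their call without the block. Depth limits single sites, with a median of 30 homemade tags in TAP.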

Other observations

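Over all shared sites 17.7% passed the depth-scaled test with more commercial tags (edgeR, adjusted p under 0.05). By class these were 5 of the 16 exon sites, 21 of the 63 promoters (33.3%), 41 of the 232 introns (17.7%) and 63 of the 427 intergenic sites (14.8%). Median fitted log2 differences were 0.48, 0.43, 0.42 and 0.41 in that order. Shared promoters had a median of 43.3 normalised commercial tags in iQNP, against 32.3 at the other shared sites. The part of the tag level in the calls was not tested. No class had a call towards the homemade antibodies. The 22 TAP sites without an iQNP site had a median ratio of 0.06, and 10 of them had more homemade tags, at a median of 9.14 normalised commercial and 8.94 homemade tags.

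The focus ratio, the deposited fraction of tags near the peak centre, differed little between the antibodies. Commercial and homemade medians were 0.848 and 0.865 at the 199 iQNP promoters without a TAP site, and 0.852 and 0.844 at the 820 other iQNP sites without one. Clonal fold medians were 0.92 with both antibodies at those promoters. GC content of the promoter windows did not separate the groups either, with medians of 61.3% at promoters with the palindrome and 62.7% at those without it among promoters lacking a TAP site.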
